A study of Mus musculus with 2 samples.

Results

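GABA-B receptors and the Kctd proteins that bind them were described here through 5 genes chosen by symbol, Gabbr1, Gabbr2, Kctd8, Kctd12 and Kctd16, of 55536 annotated genes in the tables. They carry 29 of the 141767 transcripts in the second of 2 deposited transcript tables. The RNA was taken from 2 female mice of 36 days, of the strain B6CASTF1/J (hybrids of a C57BL/6J and a CAST/EiJ parent), from the cerebral cortex of the left side, and the labels name no treatment. Each mouse gave 1 total RNA-seq library, both libraries belong to 1 group, and the labels call the animals replicate 2 and replicate 1. The labels name separate animals but give 1 donor record, which limits what each SD below can stand for. With 1 group there is no contrast between conditions, so the results are levels, ratios of levels and the difference between the mice, none of them with a test.

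The GABA-B receptor is the metabotropic receptor for GABA and works as an obligate pair: the GABBR1 protein binds GABA, while GABBR2 couples to inhibitory G proteins and lets the pair reach the cell surface. In cortex it opens potassium channels of the GIRK type in dendrites and inhibits calcium channels in nerve terminals. KCTD8, KCTD12 and KCTD16 are auxiliary subunits that bind the tail of GABBR2 and set the speed of the response, and KCTD12 makes it desensitise. Gabbr1 makes a long form, 1a, with a pair of sushi repeats at its extracellular end that direct it to axon terminals, and a shorter form, 1b, that lacks them and is found mostly in dendrites.

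Stretches of Gabbr1 that tell its main transcripts apart are shown first, because the split of the gene's RNA among them carries most of the results. They were read from the GENCODE M21 transcript sequences on mm10, plus strand. Capitals mark 30 bases that the transcript shares with another one. In the lines for Gabbr1-203 (form 1b, chr17:37050854-37051028) and Gabbr1-201 (form 1a, chr17:37048526-37051028, introns removed), the capitals are the first bases common to both. They come after 145 bases of coding sequence of 1b that 1a lacks and after 102 bases of 1a that 1b lacks. In the line for Gabbr1-209 (chr17:37048577-37048824), the capitals are the end of an exon it shares with 1a, and the 218 bases after them run on into what is an intron of 1a, up to the stop codon.
Gabbr1-203: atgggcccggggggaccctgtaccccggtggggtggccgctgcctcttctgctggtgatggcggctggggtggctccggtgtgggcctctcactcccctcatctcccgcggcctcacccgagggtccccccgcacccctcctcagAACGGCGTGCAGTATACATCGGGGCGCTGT
Gabbr1-201: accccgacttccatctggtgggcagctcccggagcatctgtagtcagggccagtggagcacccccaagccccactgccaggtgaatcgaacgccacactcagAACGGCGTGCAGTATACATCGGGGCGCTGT
Gabbr1-209: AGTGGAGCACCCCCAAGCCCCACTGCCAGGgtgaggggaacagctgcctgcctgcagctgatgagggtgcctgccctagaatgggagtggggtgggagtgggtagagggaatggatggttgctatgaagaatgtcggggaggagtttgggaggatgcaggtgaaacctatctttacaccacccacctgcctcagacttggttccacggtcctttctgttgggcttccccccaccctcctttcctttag
The first line opens with the start codon of 1b, so the signal peptide of that form is encoded in its own first bases.

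Levels are TPM, a relative abundance corrected for transcript length. Both receptor genes stood well above all 3 Kctd genes. Gabbr1 (ENSMUSG00000024462.17, chr17:37045966-37075067, plus strand, mm10) had 282.41 TPM in replicate 2 and 323.63 TPM in replicate 1, a mean of 303 ± 29.1 TPM (SD, n = 2). Gabbr2 (ENSMUSG00000039809.10, chr4:46662305-46991873, minus strand) had 112.11 TPM in replicate 2 and 128.38 TPM in replicate 1, a mean of 120.2 ± 11.5 TPM (SD, n = 2). Among the 12754 nuclear protein-coding genes with at least 1 TPM in both mice, Gabbr1 ranked 151 and Gabbr2 ranked 669.

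The auxiliary subunits covered a wide range below the receptor genes. Kctd16 (ENSMUSG00000051401.7, chr18:40256962-40531630, plus strand) had 52.77 TPM in replicate 2 and 61.81 TPM in replicate 1, a mean of 57.3 ± 6.39 TPM (SD, n = 2). Kctd12 (ENSMUSG00000098557.1, chr14:102976581-102982637, minus strand) had 17.21 TPM in replicate 2 and 17.89 TPM in replicate 1, a mean of 17.6 ± 0.481 TPM (SD, n = 2). Kctd8 (ENSMUSG00000037653.7, chr5:69109285-69341679, minus strand) had 3.42 TPM in replicate 2 and 4.41 TPM in replicate 1, a mean of 3.92 ± 0.700 TPM (SD, n = 2). Kctd16 ranked 1812, Kctd12 5843 and Kctd8 10732 among the same 12754 genes. The order Gabbr1, Gabbr2, Kctd16, Kctd12, Kctd8 was the same in both mice, and no gene's values overlapped those of its neighbour in that order. In tissue RNA, fewer cells that express a gene and less RNA per cell cannot be told apart.

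**Figure D1:**
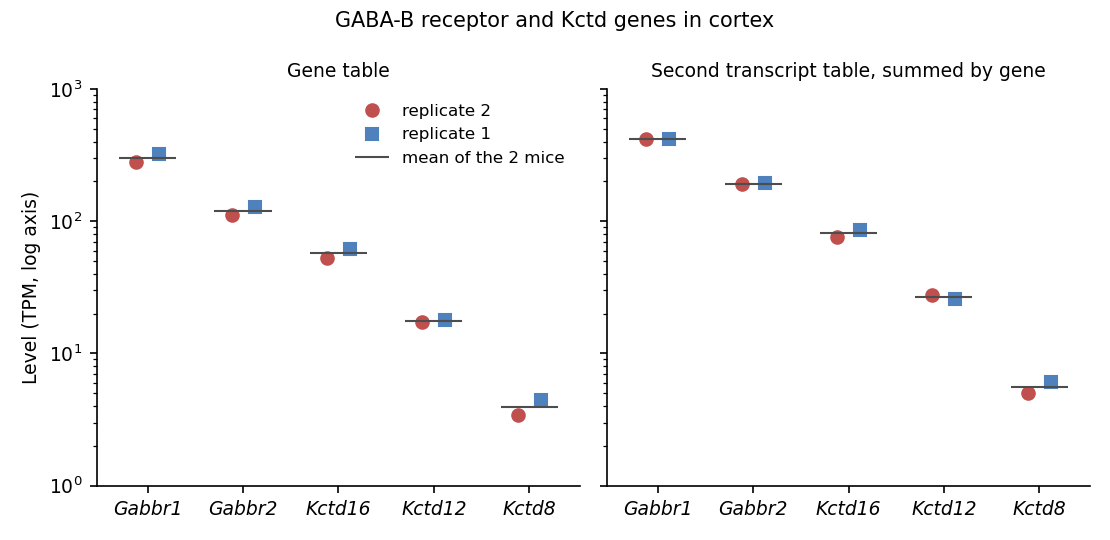
Level of each gene in TPM (logarithmic axis) in replicate 2 (circles) and replicate 1 (squares), with a line at the mean of the 2 mice, in the gene table on the left and the second transcript table on the right. In the gene table Gabbr1 lies highest, at 282.41 and 323.63 TPM, and Kctd8 lowest, at 3.42 and 4.41 TPM, with no overlap between neighbouring genes.

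The read counts behind these levels were 22383 and 18265 for Gabbr1, 15917 and 13467 for Gabbr2, and 2321 and 2243 for Kctd16, in replicate 2 and replicate 1. Kctd12 had 2593 and 1993 counts and Kctd8 had 233 and 221 counts, in the same order, so Kctd8 has the least precise values. All of these gene counts were whole numbers with a posterior SD of 0, which means that the authors' quantifier divided no read between any of the 5 genes and another gene. Libraries held 35188800 expected counts in replicate 2 and 29417200 in replicate 1 (rounded). All 6 projection neuron markers and all 6 interneuron markers of cortex were expressed in both mice, among them Slc17a7 at 642.74 and 614.95 TPM and Gad1 at 146.29 and 158.05 TPM in replicate 2 and replicate 1. The habenula is a region known for Kctd8 and Kctd12, and of its 5 markers 1 (Tac2) reached 1 TPM in both mice. Of 4 choroid plexus markers, Ttr and Kl were expressed in both mice while Folr1 and Aqp1 stayed below 1 TPM. Summed over all 4 they reached 9.98 TPM in replicate 2 against 73.2 TPM in replicate 1, of which Ttr had 8.29 and 70.06 TPM in the same order. Markers of other regions differed between the mice to varying degrees. All 4 thalamus markers were expressed, at a summed 43.49 TPM in replicate 2 and 60.67 TPM in replicate 1 and a median log2 ratio (replicate 2 over replicate 1, with TMM library sizes, a scaling by the bulk of genes) of -0.14. All 4 striatum markers were expressed, at a summed 26.8 TPM in replicate 2 and 28.33 TPM in replicate 1 and a median log2 ratio of 0.44. Of 3 olfactory bulb markers 2 were expressed, and they differed in direction. Cdhr1 had 4.54 TPM in replicate 2 and 2.7 TPM in replicate 1, a log2 ratio of 0.97. Doc2g had 1.1 TPM in replicate 2 and 1.61 TPM in replicate 1, a log2 ratio of -0.38. Eomes, the marker below 1 TPM, was also lower in replicate 2, at 0.02 TPM against 0.06 TPM. Of 4 hippocampus markers 2 were expressed, Prox1 and Fibcd1, with log2 ratios of -0.13 and 0.29. Summed over all 4 the markers reached 7.14 TPM in replicate 2 and 8.85 TPM in replicate 1. Of these sums Spink8, not expressed in both mice, had 0.15 TPM in replicate 2 and 1.51 TPM in replicate 1. The part of such tissue in the values of the 5 genes was not tested.

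Genes closest in level to each of the 5 were found by the distance in log2(TPM + 1) over the 2 libraries. For Gabbr1 they included Ndufa4, with 289.53 TPM in replicate 2 and 330.23 TPM in replicate 1. For Gabbr2 they were Ncam1, a neural cell adhesion molecule, and Eif4g1. Scrt1 and Rbbp7 lay closest to Kctd16, Cstb and Bad to Kctd12, and Igfbp3 and Cep78 to Kctd8. With 2 libraries such a likeness describes level alone.

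Gabbr1 RNA exceeded that of its partner by about the same factor in both animals. The ratio of Gabbr1 to Gabbr2 in TPM was 2.52 in replicate 2 and 2.52 in replicate 1, a mean of 2.52 ± 0.0013 (SD, n = 2). Part of the Gabbr1 value was assigned to annotated transcripts that do not encode a whole receptor subunit. The largest of them was Gabbr1-209, some of whose reads cannot be told apart from reads of an intron of 1a. With full-length transcripts alone, a choice made after seeing the data, Gabbr1 had 187.1 TPM in replicate 2 and 205.26 TPM in replicate 1, against 111.21 and 127.07 TPM for Gabbr2. The ratio of these was 1.68 in replicate 2 and 1.62 in replicate 1, and the second transcript table gave a mean of 1.58. Gabbr1 was therefore the higher of the pair on every scale used, by a factor that depends on which transcripts are counted.

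Gabbr1 has 11 annotated transcripts in this annotation, of which 3 took at least 5% of the gene's TPM. Gabbr1-203 (ENSMUST00000172792.7), form 1b, has 18 exons and 844 codons. It had 158.7 TPM in replicate 2 and 178.99 TPM in replicate 1, which is 56.2% and 55.3% of the gene (55.8 ± 0.630%, SD, n = 2). Gabbr1-201 (ENSMUST00000025338.15), form 1a, has 23 exons and 960 codons, 116 more than 1b. It had 28.4 TPM in replicate 2 and 26.27 TPM in replicate 1, which is 10.1% and 8.12% of the gene (9.09 ± 1.37%, SD, n = 2). Form 1b was the leading transcript in both mice, and form 1a took the smaller share in both.

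The ratio of 1b to 1a in TPM was 5.59 in replicate 2 and 6.81 in replicate 1, a mean of 6.20 ± 0.867 (SD, n = 2). In the second transcript table it was 6.33 in replicate 2 and 6.89 in replicate 1, a mean of 6.61 ± 0.400 (SD, n = 2). Both quantifiers thus put 1b above 1a in both mice. The forms share 16 exons in full and 3668 bases, so reads from these were divided between them by estimate. What separates them is 368 bases that 1a lacks. Form 1b lacks 817 bases in 5 upstream exons and 763 bases past its own end. Of the 817 upstream bases, 734 also lie in Gabbr1-209, so reads from those were divided by estimate as well. The share of 1a therefore rests partly on reads past the end of 1b and partly on the split with Gabbr1-209. The 368 bases lie inside an intron of 1a. In total RNA, which includes unspliced RNA, reads of 1b from these bases and reads of that intron cannot be told apart. In replicate 2 the posterior SD of the count was 144 of 3699 counts for 1a and 135 of 15802 for 1b. In replicate 1 it was 132 of 2529 for 1a and 130 of 13177 for 1b. These SDs are small beside the gap between the forms, but they do not cover reads of unspliced RNA.

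**Figure D2:**
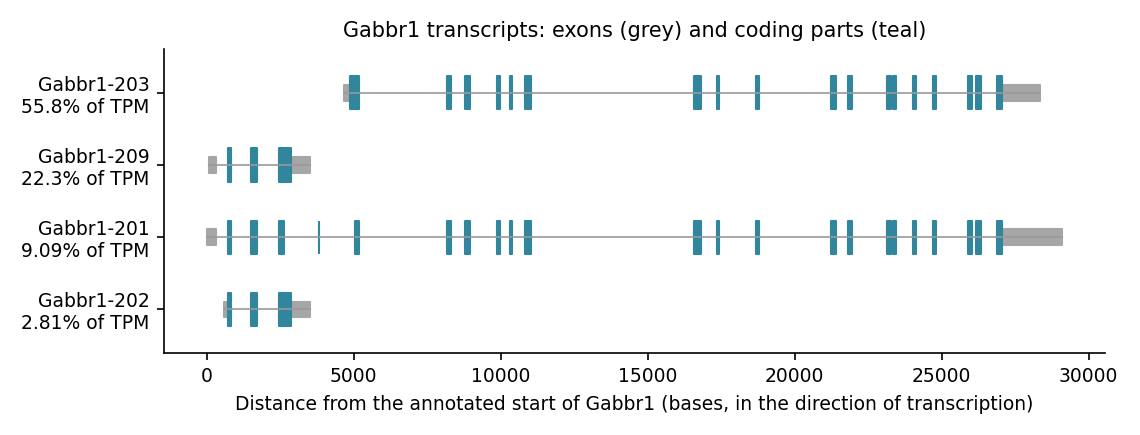
Exons (grey) and coding parts (teal) of Gabbr1-203 (1b), Gabbr1-209, Gabbr1-201 (1a) and Gabbr1-202, drawn to scale by distance in bases from the annotated start of the gene, each with its mean share of Gabbr1 TPM. Form 1a carries 5 upstream exons that 1b lacks. The long last exon of Gabbr1-209 opens with an exon of 1a and runs on into the intron of 1a after it.

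In TPM, the second most abundant Gabbr1 transcript was neither of the receptor forms. Gabbr1-209 (ENSMUST00000174456.7) has 4 exons and a frame of 229 codons that opens at the start codon of 1a and ends with the last bases of the sequence shown above. It had 60.3 TPM in replicate 2 and 75.04 TPM in replicate 1, which is 21.4% and 23.2% of the gene (22.3 ± 1.30%, SD, n = 2). In the second transcript table its mean share was 29.0%. The rank depends on the correction for length: in counts 1a came second, with 16.5% of the gene in replicate 2 and 13.8% in replicate 1, against 10.2% and 11.5% for the shorter Gabbr1-209. Secreted proteins made of the sushi region alone have been described for this gene. Of the 1595 bases of Gabbr1-209, 861 lie outside the exons of 1a and 734 are shared with it. In total RNA, which includes unspliced RNA, reads of a short mRNA and of the intron of 1a cannot be told apart in these tables.

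The transcripts can also be grouped by their start codon, which lies at position 37046695 for 1a and 37050854 for 1b, 4159 bases downstream. Transcripts with the 1a start took 34.9% of Gabbr1 TPM in replicate 2 and 33.7% in replicate 1, and those with the 1b start took 57.6% and 56.1%. The remaining 7.46% in replicate 2 and 10.2% in replicate 1 belonged to 5 transcripts with no annotated start codon. Of the RNA with the 1a start, the short frames of Gabbr1-209 and Gabbr1-202 held the larger portion in TPM, 24.7% of the gene in replicate 2 and 25.4% in replicate 1, against 10.1% and 8.12% for the full-length 1a. In counts the order was the opposite in both mice, with 2608 in replicate 2 and 2285 in replicate 1 for the short frames, against 3699 and 2529 for the full-length 1a. Gabbr1-202 itself had a mean share of 2.81% in the first transcript table and 0% in the second.

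**Figure D3:**
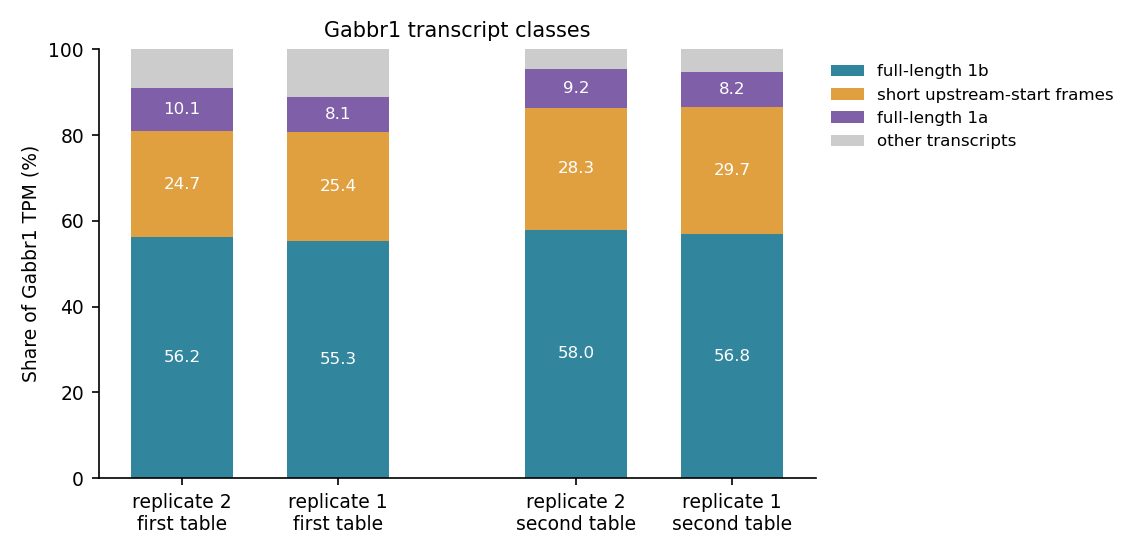
Share of Gabbr1 TPM, in percent, taken by Gabbr1-203 (1b), Gabbr1-201 (1a), the short frames Gabbr1-209 and Gabbr1-202, and all other transcripts, stacked for replicate 2 and replicate 1 in the first and the second transcript table. Form 1b takes 56.2% and 55.3% in the first table and 58.0% and 56.8% in the second.

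Gabbr2 was nearly all 1 transcript. Gabbr2-201, with 19 exons and 940 codons, took 99.2% of the gene's TPM in replicate 2 and 99.0% in replicate 1 (99.1 ± 0.15%, SD, n = 2). In the second transcript table it took a mean of 91.9%, and Gabbr2-203, an incomplete model of 550 bases, took 5.57% there and 0% in the first. No other gene in the annotation overlaps Gabbr1 or Gabbr2.

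KCTD16, whose gene was the highest of the 3 Kctd genes in TPM, lacks the desensitising action of KCTD12. Kctd16 made up 71.9% of the summed TPM of Kctd8, Kctd12 and Kctd16 in replicate 2 and 73.5% in replicate 1 (72.7 ± 1.13%, SD, n = 2). Kctd12 made up 23.4% in replicate 2 and 21.3% in replicate 1 (22.4 ± 1.54%, SD, n = 2). Kctd8 made up 4.66% in replicate 2 and 5.24% in replicate 1 (4.95 ± 0.413%, SD, n = 2). The makeup thus differed little between the animals, but it depended on the correction for length. Without that correction, in counts, Kctd16 held 47.7% and Kctd12 held 47.5% on average, and Kctd16 was below Kctd12 in replicate 2 and above it in replicate 1. Their effective lengths, averaged over transcripts, were 1739 bases in replicate 2 and 1941 bases in replicate 1 for Kctd16, against 5958 bases in both for Kctd12.

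The effective length of Kctd16 depends on which of its 10 annotated transcripts the reads were assigned to. In the first transcript table Kctd16-206, with a frame of 427 codons, took 48.0% of the gene's TPM in replicate 2 and 60.9% in replicate 1. Its mean was 54.5 ± 9.10% (SD, n = 2), the widest spread of any leading transcript there. In the second transcript table it took 64.1% in replicate 2 and 69.7% in replicate 1 (66.9 ± 4.00%, SD, n = 2). Its share and spread thus depend on how reads were divided among transcripts. Kctd16-201, with a frame of the same length, took 18.5% in replicate 2 and 11.9% in replicate 1 in the first table. In the second it took 7.44% and 2.54%, in the same order. Kctd16-202, a single exon of 723 bases with a frame of 140 codons and another start codon, took a mean of 25.9% in the first table and 27.2% in the second. With the full-length Kctd16-206 and Kctd16-201 alone, against Kctd12-202 and Kctd8-201, Kctd16 was 65.2%, Kctd12 28.9% and Kctd8 5.92% of the sum. Kctd16 stayed above Kctd12 in that count, with a ratio of 2.04 in replicate 2 and 2.51 in replicate 1, against 3.07 and 3.46 with all transcripts.

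**Figure D4:**
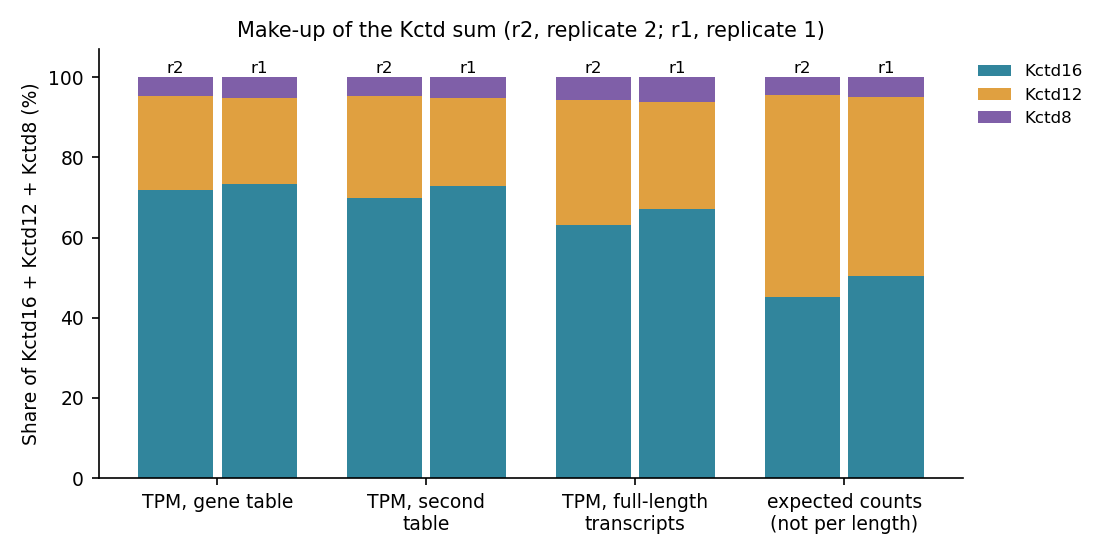
Share of each gene in the sum of Kctd16, Kctd12 and Kctd8, in percent, for replicate 2 and replicate 1, by TPM of the gene table, TPM of the second transcript table, TPM of full-length transcripts and counts. Kctd16 is the largest part in TPM of the gene table, at 71.9% and 73.5%, while in counts Kctd16 and Kctd12 are near each other.

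Kctd12 and Kctd8 have simpler transcripts. Kctd12-202, a single exon with a frame of 327 codons, took 100% of Kctd12 in both transcript tables. Kctd8-201, with 476 codons, took 93.6% of Kctd8 in replicate 2 and 92.1% in replicate 1, and Kctd8-202, with 346 codons, took the rest. Genes that overlap the 3 on the opposite strand had few counts, 5 and 6 for Kctd12 and 8 and 7 for Kctd16, in replicate 2 and replicate 1. A gene on the same strand inside Kctd16 had 247 and 421 counts, and 7 such genes overlapping Kctd8 had 32 and 76 counts together, in the same order. The strand setting of the authors' counting is not given.

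The 3 Kctd genes are paralogs, and their sequences bear on whether reads could be mixed up. Coding sequences of Kctd8 and Kctd12 were identical at 65.0% of 914 aligned bases, those of Kctd8 and Kctd16 at 62.4% of 1313, and those of Kctd12 and Kctd16 at 67.4% of 340. The longest run shared by any pair of their transcripts was 26 bases, between Kctd8 and Kctd16. The most alike stretch of 90 coding bases of Kctd12 (chr14:102981550-102981639, minus strand) and Kctd8 (chr5:69340411-69340500, minus strand), codons 268 to 297 in both, is shown from the GENCODE M21 transcripts on mm10, with the bases that differ in capitals.
Kctd12: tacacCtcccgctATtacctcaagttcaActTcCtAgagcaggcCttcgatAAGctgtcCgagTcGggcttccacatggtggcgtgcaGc
Kctd8: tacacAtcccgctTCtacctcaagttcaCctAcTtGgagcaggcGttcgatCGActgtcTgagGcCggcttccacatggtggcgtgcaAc
In this stretch 75 of 90 bases were identical, 83.3%. The differences are unevenly placed, and a run of 22 identical bases lies near its end.

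Summed Kctd RNA was lower than receptor RNA. The TPM of Kctd8, Kctd12 and Kctd16 together was 0.186 of that of Gabbr1 and Gabbr2 together in replicate 2 and 0.186 in replicate 1. Set against Gabbr2 alone, whose protein they bind, it was 0.655 in replicate 2 and 0.655 in replicate 1. With full-length transcripts the mean ratio to Gabbr2 was 0.513, and in counts, not corrected for length, it was 0.327. RNA levels do not give the number of subunits per receptor.

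Within the Kctd family, many of whose members act as adaptors for ubiquitin ligases rather than on GABA-B receptors, Kctd16 was 3 of 22 genes by level, Kctd12 was 9 and Kctd8 was 18. Kctd17, at 146 ± 6.35 TPM, and Kctd13, at 66.9 ± 1.47 TPM (SD, n = 2), were above Kctd16. Kctd12b, a close relative of Kctd12 that also binds the receptor in mice, had 1.08 TPM in replicate 2 and 1.07 TPM in replicate 1, below all 3. Among 20 other class C receptor genes, 10 were expressed, and the highest, the glutamate receptor Grm5, had 73.68 TPM in replicate 2 and 86.53 TPM in replicate 1. Both Gabbr1 and Gabbr2 were above it in both mice.

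Most genes listed as carriers of the receptor's signal were expressed, with 1 GIRK gene below 1 TPM. Of 4 GIRK channel genes 3 were expressed: Kcnj9 at 61.6 ± 10.05 TPM, Kcnj3 at 51.6 ± 5.75 TPM and Kcnj6 at 38.4 ± 10.1 TPM (SD, n = 2), while Kcnj5 had 0.24 ± 0.014 TPM. All 5 genes for inhibitory G protein alpha subunits were expressed, led by Gnao1 at 314 ± 21.8 TPM. The presynaptic calcium channel pores Cacna1a and Cacna1b had 106 ± 24.3 and 38.4 ± 5.27 TPM (SD, n = 2). All 5 genes of the RGS group, which speeds G protein switch-off, were expressed, from Rgs6 at 37.7 TPM to Rgs4 at 254 TPM. Mean TPM of Gabbr2 was above that of each GIRK gene. Gabbr1 was at 303 TPM beside the 314 TPM of Gnao1 in the gene table, but at 421.2 TPM against 666 TPM in the second transcript table.

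Partners of the receptor and genes that handle its ligand were also expressed, 9 of 9 and 8 of 8. App, Pianp and Ajap1, whose proteins bind the sushi region of 1a, had 647 ± 26.6, 77.1 ± 6.05 and 21.8 ± 1.18 TPM (SD, n = 2), against 27.3 ± 1.51 TPM for the 1a transcript itself. Ywhaz had 529 TPM and Nsf, which binds the receptor's intracellular part, had 383 TPM. Of the genes for GABA synthesis, Gad1 had 152 ± 8.32 TPM and Gad2 39.3 ± 5.01 TPM (SD, n = 2). The gene of the GABA breakdown enzyme, Abat, had 65.5 ± 2.02 TPM and the vesicular transporter gene Slc32a1 38.5 ± 0.269 TPM (SD, n = 2).

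The difference between the mice was small for all 5 genes. It is given as the log2 ratio of replicate 2 over replicate 1 of counts scaled to TMM library sizes, with its 95% exact Clopper-Pearson counting interval. None of the 5 genes (0 of 5) was past 1.5-fold, against 3.12% of the 12615 genes that averaged 100 counts or more, which is 394 genes. The ratio was 0.17 (0.083 to 0.25) for Kctd12 and 0.08 (0.053 to 0.11) for Gabbr1, intervals above 0. It was -0.16 (-0.25 to -0.078) for Kctd16, an interval below 0. For Gabbr2 it was 0.03 (-0.0041 to 0.062) and for Kctd8 -0.13 (-0.41 to 0.14), with 0 inside both intervals. The central 95% of all those genes lay between -0.53 and 0.43, so none of the 5 stood apart from genes at large, and an interval that leaves out 0 covers counting error only.

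All 5 genes had lower TPM in replicate 2, whereas their TMM ratios had both signs. Over all genes the median was -0.20 in deposited TPM and 0.02 with TMM. The abundant 7SL RNA took 30.1% of TPM in replicate 2 and 24.3% in replicate 1, and its part in the difference was not tested. With library sizes from the spike-in counts the median of all genes was -0.42, and the 5 genes lay between -0.61 (Kctd16) and -0.28 (Kctd12), all lower in replicate 2. On that scale 1 of the 5, Kctd16, was past 1.5-fold, against 21.0% of all genes. Since scaling moves every gene nearly alike, the distance from the median of all genes, -0.19 for Kctd16 and 0.14 for Kctd12, hardly depends on it by construction. Of 72 other genes in the 8 lists of relatives, signalling genes, partners and GABA handling genes, 58 averaged 100 counts or more. None of those (0 of 58) was past 1.5-fold with TMM, against 3.12% of all genes, and their median log2 ratio was 0.05. With spike-in scaling 5 of the 58 were past it, all lower in replicate 2, against 21.0% of all genes, with a median of -0.39. Those 5, named after their values were seen, were Kctd18, Kcnj6, Kctd9, Kctd21 and Mpdz.

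**Figure D5:**
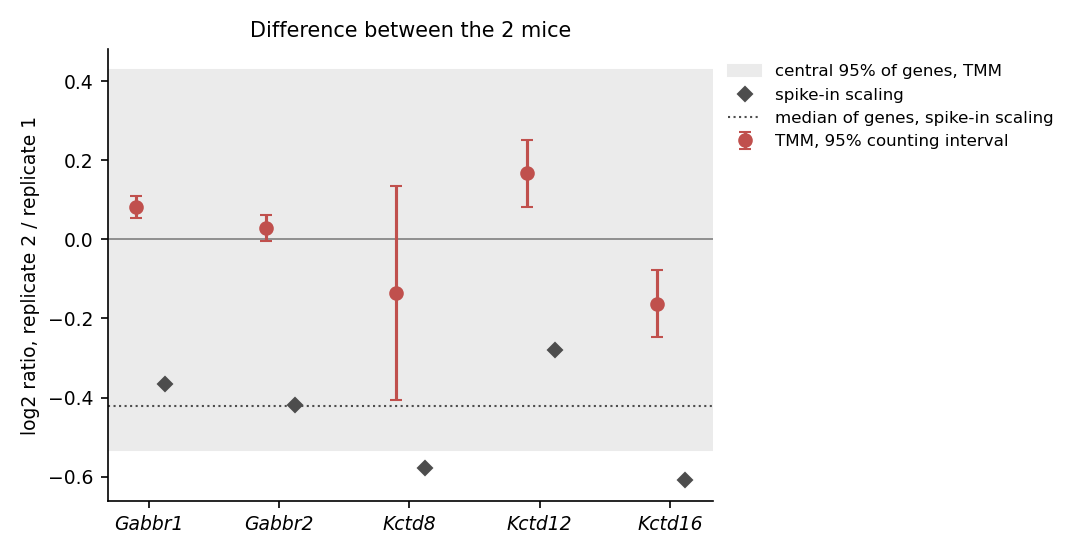
Log2 ratio of replicate 2 over replicate 1 for each gene with TMM library sizes, as points with 95% counting intervals, over the grey band that holds the central 95% of genes averaging 100 counts or more. Diamonds give the ratio with spike-in scaling and the dotted line the median of those genes on that scale, -0.42. All 5 TMM points lie inside the band, which runs from -0.53 to 0.43.

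Between the mice, the Gabbr1 transcripts did not all have the same ratio. The TMM-scaled log2 ratio of replicate 2 over replicate 1 was 0.34 (0.26 to 0.41) for 1a, 0.05 (0.017 to 0.084) for 1b and -0.09 (-0.18 to -0.0052) for Gabbr1-209. In the second transcript table the ratios were 0.26, 0.14 and 0.04 for the same transcripts, so the order of the 3 held while the sign for Gabbr1-209 did not. These intervals leave out the error of dividing reads among transcripts, and with 1 library per mouse the difference was not tested.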

How the data were processed

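Total RNA-seq libraries of cortex from 2 mice were analysed as 1 group, with replicate numbers from the labels. The labels name separate animals but 1 donor record, so the SD may be partly technical. Per the labels, each library took 300 ng of RNA, was stranded and reduced in ribosomal RNA, carried spike-ins and was processed on mm10. The deposited notes name GENCODE M21 as annotation. The aligner and quantifiers were not given in the sources used here, and column headings match RSEM (gene table, first transcript table) and kallisto (second).

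The authors deposited expected counts, TPM and FPKM per gene and transcript, the percent of its gene that each transcript takes, and, in the second transcript table, estimated counts and TPM. Deposited TPM is scaled over all rows, spike-ins and 7SL RNA included. Rows naming no gene, spike-ins among them, held 0.461% of counts in replicate 2 and 0.349% in replicate 1 and were left out of library sizes. Reads were quantified on the C57BL/6J reference, and loss of reads from the CAST/EiJ allele was not tested.

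Ratios between mice used expected counts rounded to whole numbers, with a prior count of 2 and TMM (edgeR 4.0.16, R 4.3.3) over genes averaging 10 counts or more. Genes averaging 100 counts or more were called past 1.5-fold by size, with no test. Expressed means at least 1 TPM in both mice. Python 3.11.15, pandas 2.3.3, numpy 2.4.6, scipy 1.17.1, biopython 1.88 and matplotlib 3.10.9 were used, and DESeq2 1.42.0 for alternative size factors. The ratio step was tested on simulated data.

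The text names all 5 genes, transcripts with a mean share of at least 5% in either table, the 2 protein-coding genes nearest in log2(TPM + 1), and up to 5 genes per list by level. A few genes meeting this rule are not reported here. Gabbr1-202, Kctd8-202, Kctd12b and Ajap1 fall outside that rule and were named after their values were seen. The genes and lists were chosen with earlier results of these data known. Alternatives covered another table, scaling, length correction and each mouse left out.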

Additional observations from a re-analysis of the deposited data

How the results depend on the processing

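The order of the 5 genes by level was the same in TPM of the second transcript table, while the values moved. TPM over protein-coding genes and FPKM differ from TPM by 1 factor per library, so they could not change the order. In counts, not corrected for length, the order did change in replicate 2, with 2593 for Kctd12 above 2321 for Kctd16. Gabbr1 had 421.2 TPM in the second table, 682.4 TPM over protein-coding genes and 204 FPKM. Gabbr2 had 191.9 TPM, 270.8 TPM and 81.1 FPKM on those scales, Kctd16 80.8 TPM, 128.9 TPM and 38.6 FPKM, Kctd12 26.7 TPM, 39.6 TPM and 11.9 FPKM, and Kctd8 5.56 TPM, 8.79 TPM and 2.63 FPKM. The ratio of Gabbr1 to Gabbr2 was 2.19 in the second table, 1.38 in counts, 2.31 with protein-coding transcripts and 1.65 with full-length ones. The ratio of summed Kctd to receptor RNA was 0.184 in the second table, 0.137 in counts, 0.195 with protein-coding transcripts and 0.194 with full-length ones. Kctd16 took 71.4% of the Kctd sum in the second table, 47.7% in counts and 65.2% with full-length transcripts, Kctd12 took 47.5% in counts and 28.9% with full-length transcripts, and Kctd8 took 5.92% with full-length transcripts. The ratio of 1b to 1a was 4.74 in counts. Form 1b took 57.4% of Gabbr1 in the second table, 61.3% of its protein-coding transcripts and 71.4% of counts. Some of these moves follow from definitions: the rescaling in TPM over protein-coding genes and in FPKM, and the transcripts left out of protein-coding or full-length values. Counts, in turn, are not corrected for length. The cause of the moves in the second table was not tested. Genes past 1.5-fold numbered 2238 with a mean count of at least 10 and 2647 with spike-in library sizes, and 95 were past 2-fold. Of 35 alternative log2 ratios of the 5 genes, 25 stayed inside the counting interval of the TMM value. Depth limits Kctd8 most. No paired analysis was possible because both libraries belong to 1 group.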
